A study of Mus musculus with 23 samples.

Results

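Integrins are receptors of the cell surface, each made of 1 alpha and 1 beta subunit, that bind proteins of the extracellular matrix outside the cell and link them through adaptor proteins to the actin cytoskeleton. The alpha subunit largely sets which matrix protein is bound, and a subunit reaches the surface as part of a heterodimer, so the pair rather than the single gene is the working receptor. MSCs in culture are adherent cells that hold to their substrate through integrins. Here the transcripts of 10 integrin genes were described, 6 coding for alpha subunits (Itga1, Itga3, Itga5, Itga6, Itga7 and Itgav) and 4 for beta subunits (Itgb1, Itgb3, Itgb5 and Itgb7). They were chosen by gene symbol, and all 10 were among the 23284 genes of the expression table. Of the 24 alpha and beta pairs listed for comparison, 8 have both subunits among these 10 genes.

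The table held 23 libraries, from 16 single mouse bone marrow mesenchymal stem cells (mMSC1 to mMSC16), 5 single HL-1 cardiomyocytes (HL1cm1 to HL1cm5) and 1 population control of each cell type (mMSC-PC and HL1cm-PC), made from a bulk of cells. The mMSCs were purchased, came from male C57BL/6J mice that were 3 months old, and were grown on gelatin to passages 6 to 11, with no treatment named. HL1cm is an established mouse cardiomyocyte line of atrial origin, used at passages 70 to 85 and grown on fibronectin and gelatin in a medium with norepinephrine, and these cells were stained with a green dye before capture in the same device as the mMSCs. Coating, medium, dye and cell type therefore differed together, and their parts in any difference between mMSCs and HL1cm cannot be told apart.

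Values are in FPKM, fragments scaled by the exon length of the gene and by the mapped fragments of the library, so that genes of different length can be set side by side. A gene was called detected at 1 FPKM or more. The estimated depth was 95000 (mMSC9) to 475000 fragments in the mMSCs (median 338000) and 226000 to 451000 fragments in the HL1cm. Detected genes numbered 5178 to 7241 in mMSCs, 6428 to 7010 in HL1cm, 9625 in mMSC-PC and 9881 in HL1cm-PC. A 0 can be a failed estimate, since Canx, a chaperone gene of every cell, was listed at 0 in mMSC12. Of the 9 MSC markers, 8 were higher in mMSCs, while Thy1 was listed at 0 in all 16, and all 12 cardiomyocyte markers were lower in mMSCs. Of the 11 macrophage and blood markers in the table, Ptprc, Emr1, Lyz2, Aif1, Tyrobp and Itgb2 were at 0 in all 16 mMSCs, and the summed level of the list was 3.10 to 369 FPKM in mMSCs and 0 to 1.10 FPKM in HL1cm, most of it from Cd14 (median 62.5 FPKM in mMSCs). Neither labels nor methods name separate cultures, so each cell type was treated as 1 sample and the cell types were compared without a test.

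RefSeq promoters (GRCm38.p6, the assembly called mm10) were at hand for 7 of the 10 genes. Those of the 3 genes detected in all 16 mMSCs, Itgb1, Itga5 and Itgav, are shown beside that of Itgb7, which was detected in 2. Each runs 5′ to 3′ on the gene's own strand from 250 bases before the start of transcription to 50 bases after it, with every CG dinucleotide in capitals. The windows are chr8:128685404-128685703 (plus strand) for Itgb1, chr15:103366742-103367041 (minus) for Itga5, chr2:83724147-83724446 (plus) for Itgav and chr15:102231886-102232185 (minus) for Itgb7.
Itgb1: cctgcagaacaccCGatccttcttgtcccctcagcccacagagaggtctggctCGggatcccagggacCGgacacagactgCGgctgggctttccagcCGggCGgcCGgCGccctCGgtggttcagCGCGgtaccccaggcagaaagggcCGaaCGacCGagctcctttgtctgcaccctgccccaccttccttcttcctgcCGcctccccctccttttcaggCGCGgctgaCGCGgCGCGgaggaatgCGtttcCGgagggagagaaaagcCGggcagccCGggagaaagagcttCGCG
Itga5: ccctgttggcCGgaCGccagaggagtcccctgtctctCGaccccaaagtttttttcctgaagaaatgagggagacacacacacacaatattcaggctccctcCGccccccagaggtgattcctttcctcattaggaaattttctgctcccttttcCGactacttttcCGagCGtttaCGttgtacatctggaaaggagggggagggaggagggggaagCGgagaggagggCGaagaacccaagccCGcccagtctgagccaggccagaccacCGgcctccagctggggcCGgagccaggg
Itgav: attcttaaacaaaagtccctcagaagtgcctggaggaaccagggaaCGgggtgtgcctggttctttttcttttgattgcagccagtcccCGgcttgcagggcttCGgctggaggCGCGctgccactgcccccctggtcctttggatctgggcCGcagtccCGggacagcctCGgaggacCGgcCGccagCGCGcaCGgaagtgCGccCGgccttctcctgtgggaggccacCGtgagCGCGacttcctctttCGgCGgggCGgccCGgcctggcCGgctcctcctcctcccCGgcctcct
Itgb7: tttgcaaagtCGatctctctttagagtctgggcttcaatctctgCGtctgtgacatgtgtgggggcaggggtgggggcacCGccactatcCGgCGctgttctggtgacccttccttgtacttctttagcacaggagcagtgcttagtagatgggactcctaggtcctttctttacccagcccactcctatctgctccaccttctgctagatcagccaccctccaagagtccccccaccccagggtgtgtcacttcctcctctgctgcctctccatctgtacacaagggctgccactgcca

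The motif searched was CG, which reads the same on both strands and was found in 94.6% of the 32851 promoters, at a median of 7 per promoter. The Itgb1 window held 27 and that of Itgav 24, numbers reached by 15.5% and 20.0% of promoters, and that of Itga5 held 13, reached by 37.9%. The Itgb7 window held 5, and 43.6% of promoters held as few. Of the others, Itgb5 held 20, Itga3 held 24 in the window of its first listed start site and 5 in that of its other, and Itga1, which was listed at 0 in every mMSC, held 12, close to Itga5.

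Itgb1 codes for the beta1 subunit, which pairs with more alpha subunits than any other beta subunit. It lies at chr8:128685654-128733200 on the plus strand (mm10, GENCODE M21). In the 16 mMSCs it ran from 93.0 FPKM in mMSC6 through a median of 138 to 231 FPKM in mMSC2, and it was the highest of the 10 genes in each of them. The 5 HL1cm gave 41.6, 52.8, 9.32, 47.0 and 54.8 FPKM, so that every mMSC lay above every HL1cm. In FPKM as deposited the highest mMSC value was 2.49 times the lowest, and the SD of log2 FPKM over the 16 cells was 0.45. The median SD was 1.50 over the 6777 genes detected in at least 8 mMSCs. Those genes include ones of lower level and ones listed at 0 in some cells, so they are not matched to Itgb1. The estimated number of fragments behind the Itgb1 values was 63.9 in mMSC9 and 333 in mMSC5. Of the 5 integrin genes detected in at least 8 mMSCs, Itgb1 had the lowest SD, and the others ran from 0.86 for Itgav to 1.54 for Itgb5.

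Itgb5 codes for the beta5 subunit, which pairs with alphav in a receptor for vitronectin. Its locus is chr16:33829665-33949338 on the plus strand. It was listed at 0 in mMSC4, and the other 15 mMSCs ran from 7.04 FPKM in mMSC15 to 87.1 FPKM in mMSC11, with a median of 29.5 over the 16. Among HL1cm it was listed at 1.63 FPKM in HL1cm4 and at 0 in the other 4. The mMSC at 0 lay at the level of those HL1cm, and the other 15 mMSCs lay above all 5 HL1cm.

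Itgb3 (chr11:104608000-104670476, plus strand) and Itgb7 (chr15:102215995-102231944, minus strand) were rare in both cell types. Itgb3 codes for the beta3 subunit, known from platelets and osteoclasts, where it pairs with alphaIIb and alphav. It was listed at 2.61 FPKM in mMSC11, 0.751 FPKM in mMSC5 and 1.06 FPKM in mMSC-PC, and at 0 in the other 20 libraries. Itgb7, a leukocyte subunit that pairs with alpha4 and alphaE in homing to the gut, was listed at 9.50 FPKM in mMSC6 and 47.4 FPKM in mMSC15 and at 0 FPKM in every other single cell. Its value in mMSC15, which with mMSC9 was among the shallowest libraries, corresponded to about 16.2 fragments. Both population controls held Itgb7, at 27.0 FPKM in mMSC-PC and 5.42 FPKM in HL1cm-PC. In mMSC6 and mMSC15 neither Itga4 nor Itgae, its partners, was detected, so no pair of beta7 was possible in the single cells that held it. In HL1cm-PC Itgae was at 1.08 FPKM, just over the limit, so both subunits of alphaEbeta7 were detected there. That library is a pool of many cells, and the subunits need not have shared a cell. Of the 11 macrophage and blood markers, 10 were at 0 in mMSC6, where Cd14 was at 34.8 FPKM, and 9 in mMSC15, where Cd14 was at 337 and Csf1r at 32.6 FPKM, the highest of the 16 mMSCs for both markers. The other 14 mMSCs ran up to 198 FPKM for Cd14 and 32.1 FPKM for Csf1r. The part of these markers in the Itgb7 values was not tested.

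Among the alpha subunits, Itga5 and Itgav were found in every mMSC. Itga5 codes for alpha5, which with beta1 forms the classical fibronectin receptor, and lies at chr15:103344286-103366763 on the minus strand. It ran from 2.29 FPKM in mMSC1 through a median of 17.5 to 63.0 FPKM in mMSC2, a 27.5-fold range with an SD of 1.41 on the log2 scale. The lowest value rested on about 1.7 fragments. The HL1cm gave 31.6, 30.4, 7.08, 15.5 and 23.8 FPKM, all within the range of the mMSCs.

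Itgav codes for alphav, which pairs with beta1, beta3, beta5, beta6 and beta8 to bind matrix proteins through the tripeptide RGD, and lies at chr2:83724397-83806916 on the plus strand. It ran from 4.11 FPKM in mMSC8 through a median of 29.5 to 50.7 FPKM in mMSC14, with an SD of 0.86 on the log2 scale. The HL1cm gave 0.977, 6.75, 3.07, 13.8 and 2.81 FPKM. The ranges overlapped through mMSC8, and the other 15 mMSCs lay above all 5 HL1cm. Exons of Itgav share 634 bases with Gm13684 on the opposite strand, and the strand setting of the counting is not given in the sources used here.

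Itga3 (chr11:95044474-95076801, minus strand) and Itga6 (chr2:71745616-71858416, plus strand), which code for laminin-binding subunits, were present in some mMSCs and listed at 0 in others. Itga3 was detected in 9 of 16 mMSCs (56.2%, exact Clopper-Pearson 95% interval 29.9 to 80.2%), from 1.01 FPKM in mMSC6 to 20.3 FPKM in mMSC5, and in HL1cm1 at 17.6 and HL1cm5 at 3.29 FPKM. Itga6 was detected in 5 of 16 mMSCs (31.2%, interval 11.0 to 58.7%), at 17.1 FPKM in mMSC2, 4.54 in mMSC3, 4.22 in mMSC8, 13.9 in mMSC9 and 26.9 in mMSC14, and in HL1cm3 at 3.04 FPKM. The 2 genes were detected together in mMSC3, mMSC9 and mMSC14, and neither was detected in mMSC4, mMSC11, mMSC12, mMSC13 and mMSC15. The lowest Itga3 value rested on about 2.3 fragments, and these intervals cover counting of cells only.

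Itga1 and Itga7 were listed at 0 in all 16 mMSCs, which by the exact interval limits the share of cells with a listed value to 20.6%, not the share that holds the transcript. Itga1 codes for alpha1, which binds collagens and laminins with beta1. The HL1cm gave 1.23, 3.15, 1.74, 0.374 and 0 FPKM of Itga1, HL1cm-PC 14.1 and mMSC-PC 0. Itga7 codes for alpha7, the laminin-binding subunit known from skeletal and cardiac muscle. The HL1cm gave 6.73, 17.8, 0, 0 and 8.02 FPKM of Itga7, HL1cm-PC 10.1 and mMSC-PC 6.02. These genes were thus found in 3 of 5 HL1cm each, in HL1cm1 and HL1cm2 together. Exons of Itga1 (chr13:114953096-115101964, minus strand) share 685 bases with Gm49395, and those of Itga7 (chr10:128933818-128958282, plus strand) share 9 bases with Mettl7b.

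**Figure D1:**
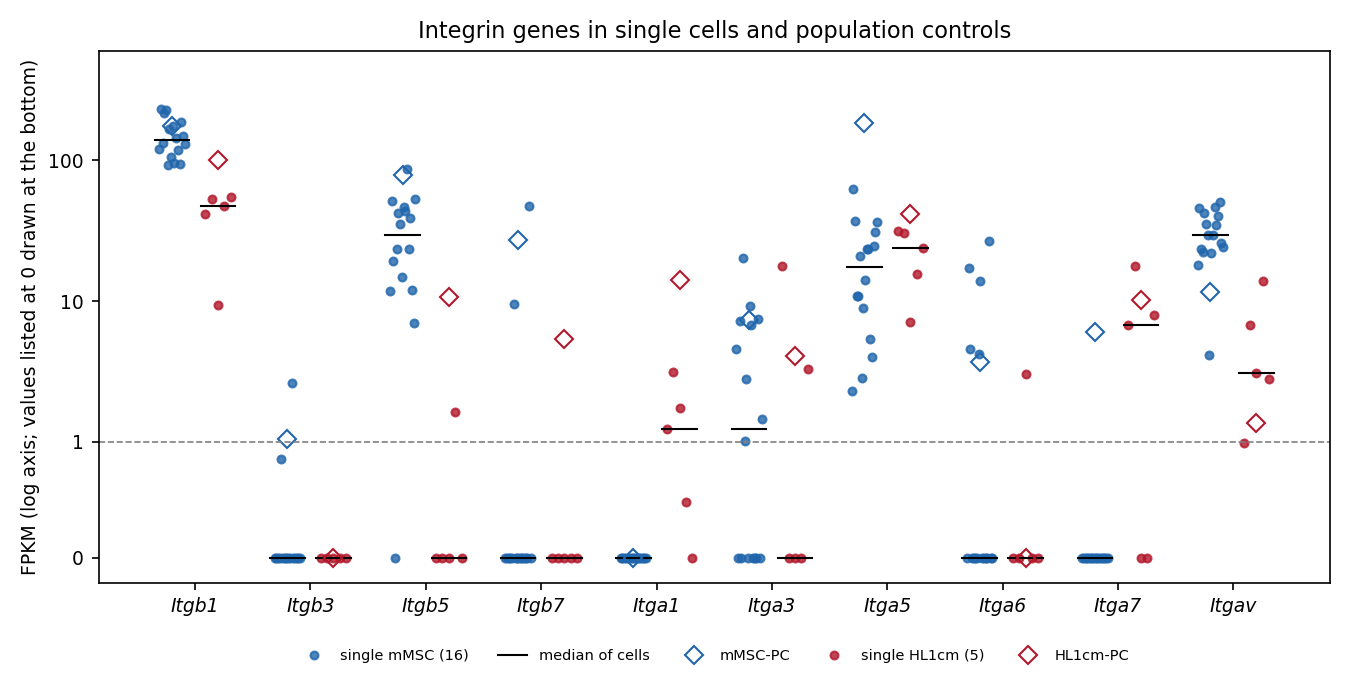
FPKM (log axis) of the 10 integrin genes in each single mMSC (blue points), each single HL1cm (red points) and the population controls (open diamonds), with the median of the cells as a black line and values listed at 0 drawn at the bottom. Itgb1 lies at 93.0 FPKM or more in every mMSC and at 54.8 FPKM or less in every HL1cm, while Itga1 and Itga7 lie at 0 in all 16 mMSCs.

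The number of these 10 genes detected in a cell was next counted. An mMSC held 3 (mMSC4) to 6 (mMSC3, mMSC6, mMSC9 and mMSC14) of them, with a median of 5, and an HL1cm held 4 (HL1cm4) or 5. Of the controls, mMSC-PC held 9 and HL1cm-PC held 8. Itga5, Itgav and Itgb1 were detected in all 16 mMSCs, 3 of 10 genes where 18.1% of the 11850 genes tested were. Itga5 and Itgb1 were detected in all 5 HL1cm, 2 of 10 genes where 27.4% of all genes tested were. The genes tested were those detected in at least 2 single cells, and Itgb3 is among the 10 but not among them.

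A pair was called possible in a library where both of its subunits were detected, which says nothing of protein or of assembly. In a population control the subunits of a possible pair may also come from different cells. The fibronectin receptor alpha5beta1 was possible in all 16 mMSCs and all 5 HL1cm. The pair alphavbeta1 was possible in all 16 mMSCs and in 4 of 5 HL1cm, all but HL1cm1, where Itgav lay at 0.977 FPKM, just under the limit. The vitronectin receptor alphavbeta5 was possible in 15 of 16 mMSCs (93.8%, interval 69.8 to 99.8%), all but mMSC4, and in HL1cm4 alone of the HL1cm. These 3 pairs made up the common set of the mMSCs.

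The laminin receptors called possible differed from cell to cell, but a missed transcript cannot be told apart from an absent one. The pair alpha3beta1 was possible in mMSC1, mMSC3, mMSC5, mMSC6, mMSC7, mMSC9, mMSC10, mMSC14 and mMSC16, and in HL1cm1 and HL1cm5. The pair alpha6beta1 was possible in mMSC2, mMSC3, mMSC8, mMSC9 and mMSC14, and in HL1cm3. The pair alpha7beta1 was possible in HL1cm1, HL1cm2 and HL1cm5 and in no mMSC. The collagen and laminin receptor alpha1beta1 was possible in HL1cm1, HL1cm2 and HL1cm3 and in no mMSC. The pair alphavbeta3 was possible in mMSC11 alone of the 21 cells, on an Itgb3 value of about 5.5 fragments.

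Counted by cell, 2 of the 8 pairs were possible in mMSC4 (alpha5beta1 and alphavbeta1). In mMSC12, mMSC13 and mMSC15, where neither Itga3 nor Itga6 was detected, 3 were. In 9 mMSCs 4 pairs were possible, and in mMSC3, mMSC9 and mMSC14 5 were, with alpha3beta1 and alpha6beta1 possible together. The 16 mMSCs showed 6 different sets of pairs, a number that missed transcripts can change. The most frequent, alpha3beta1, alpha5beta1, alphavbeta1 and alphavbeta5, was found in 6 cells. In the HL1cm 3 (HL1cm4) or 4 pairs were possible, and each of the 5 cells showed a set of its own. In mMSC-PC 7 of the 8 pairs were possible, all but alpha1beta1, and in HL1cm-PC 6 were, all but alpha6beta1 and alphavbeta3.

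At a limit of 10 FPKM for both subunits the median number of pairs fell from 4 to 3 in mMSCs, with a range of 0 (mMSC8) to 4, and from 4 to 2 in HL1cm. Where a subunit was missing at 1 FPKM it was mostly listed at 0 rather than just under the limit. The depth left little room for values in between, since Itga3 at 1.01 FPKM in mMSC6 rested on about 2.3 fragments. The pattern therefore does not show that a transcript listed at 0 was absent. Besides Itgav in HL1cm1, the values between 0 and 1 FPKM were Itgb3 in mMSC5 and Itga1 in HL1cm4.

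**Figure D2:**
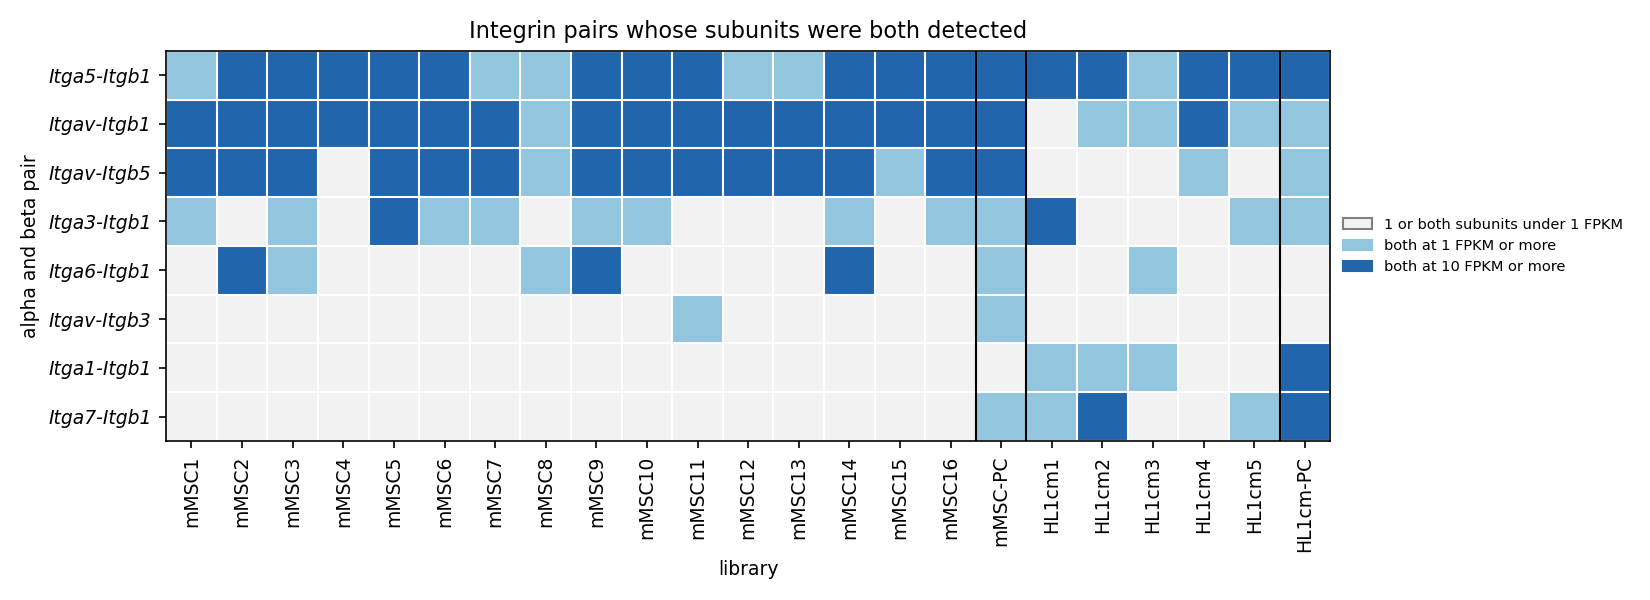
Pairs with both subunits among the 10 genes (rows) in each library (columns), coloured where both subunits were at 1 FPKM or more (light blue) or at 10 FPKM or more (dark blue). The top 2 rows are filled in all 16 mMSCs and the third in all but mMSC4, while the rows of Itga3 and Itga6 are filled in 9 and 5 of the mMSCs and those of Itga1 and Itga7 in none.

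Subunits outside the 10 genes raised the median from 4 to 5.5 possible pairs in an mMSC, over all 24 pairs. Of 17 other integrin genes, 10 were listed at 0 in all 16 mMSCs and 13 in all 5 HL1cm. Itga11, which codes for a collagen-binding partner of beta1, was detected in 14 mMSCs, all but mMSC9 and mMSC14, with a median of 8.64 FPKM and a highest value of 52.3 FPKM in mMSC13, and in none of the 5 HL1cm. Alpha11beta1 was therefore the collagen receptor possible in most mMSCs, where alpha1beta1 was not, and the other collagen-binding subunits were detected in mMSC13 alone (Itga2, 2.48 FPKM) or in none of the 16 (Itga10). Itgb6, an epithelial partner of alphav, was detected in mMSC5, mMSC7, mMSC8, mMSC11, mMSC14 and mMSC16, at 116 FPKM in mMSC11, 40.5 in mMSC8, 6.16 in mMSC14 and 3.25 FPKM or less in the other 3. In mMSC11 Itgb6 exceeded Itgb5 (87.1 FPKM), and this cell held Itgb3 as well, so alphav had partners beta1, beta3, beta5 and beta6 there. Itga4 was detected in mMSC9 (1.10 FPKM). In the HL1cm the median stayed at 4 pairs.

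Beta1 is shared among its alpha partners, so its level was set beside the sum of their levels, both per length. The summed FPKM of Itga1, Itga3, Itga5, Itga6, Itga7 and Itgav ran from 17.2 in mMSC8 to 126 in mMSC2, with a median of 58.2, and from 14.9 to 58.2 in HL1cm. Itgb1 divided by this sum was 1.62 (mMSC10) to 6.50 (mMSC4) in mMSCs, with a median of 2.37, and 0.715, 0.908, 0.625, 1.59 and 1.44 in HL1cm. Beta1 transcript exceeded that of its partners in every mMSC and in 2 of 5 HL1cm, and the lowest mMSC lay just above the highest HL1cm. The population controls gave 0.825 (mMSC-PC) and 1.40 (HL1cm-PC), and mMSC-PC lay under every single mMSC. With all 12 alpha partners in the sum, an alternative added after the data were seen, the median in mMSCs was 1.99 and mMSC6 (1.41), mMSC10 (1.29), mMSC13 (0.953) and mMSC16 (1.54) fell to the range of the HL1cm, Itga11 being the main addition.

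**Figure D3:**
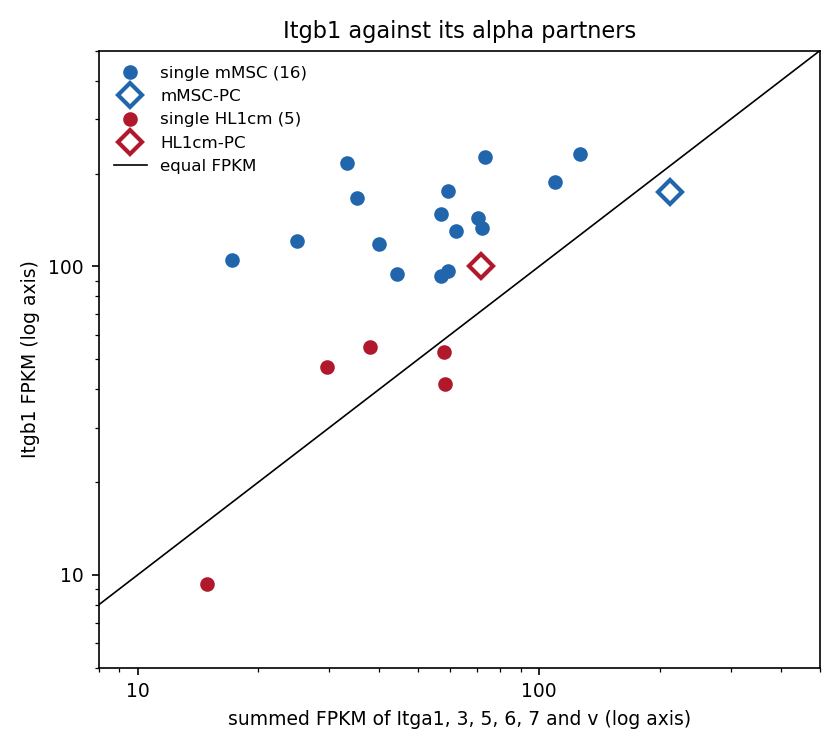
Itgb1 FPKM (vertical, log axis) against the summed FPKM of 6 alpha subunits (horizontal, log axis) in each library, with a line where the values are equal. All 16 mMSCs (blue points) lie above the line, 3 of 5 HL1cm (red points) lie below it, and of the population controls (diamonds) mMSC-PC lies below and HL1cm-PC above.

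The make-up of that sum differed between cells. Itgav was the leading alpha subunit in 11 mMSCs and Itga5 in mMSC2, mMSC3, mMSC8, mMSC15 and mMSC16. The share of Itgav in mMSCs was 23.9% (mMSC8) to 90.9% (mMSC13) with a median of 53.5%, and that of Itga5 was 8.12% (mMSC7) to 58.4% (mMSC16) with a median of 33.1%. Itga5 led in all 5 HL1cm, with 47.4 to 62.8%, and in both population controls. The share of Itgav in HL1cm was 1.68% in HL1cm1 and up to 46.5% in HL1cm4. Itga3 reached 27.7% in mMSC5, Itga6 24.6% in mMSC8 and Itga7 30.6% in HL1cm2. Itgb5 exceeded Itgav in 8 of 16 mMSCs and in none of the 5 HL1cm. It also did so in both population controls, at 6.80 times Itgav in mMSC-PC and 7.90 times in HL1cm-PC.

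**Figure D4:**
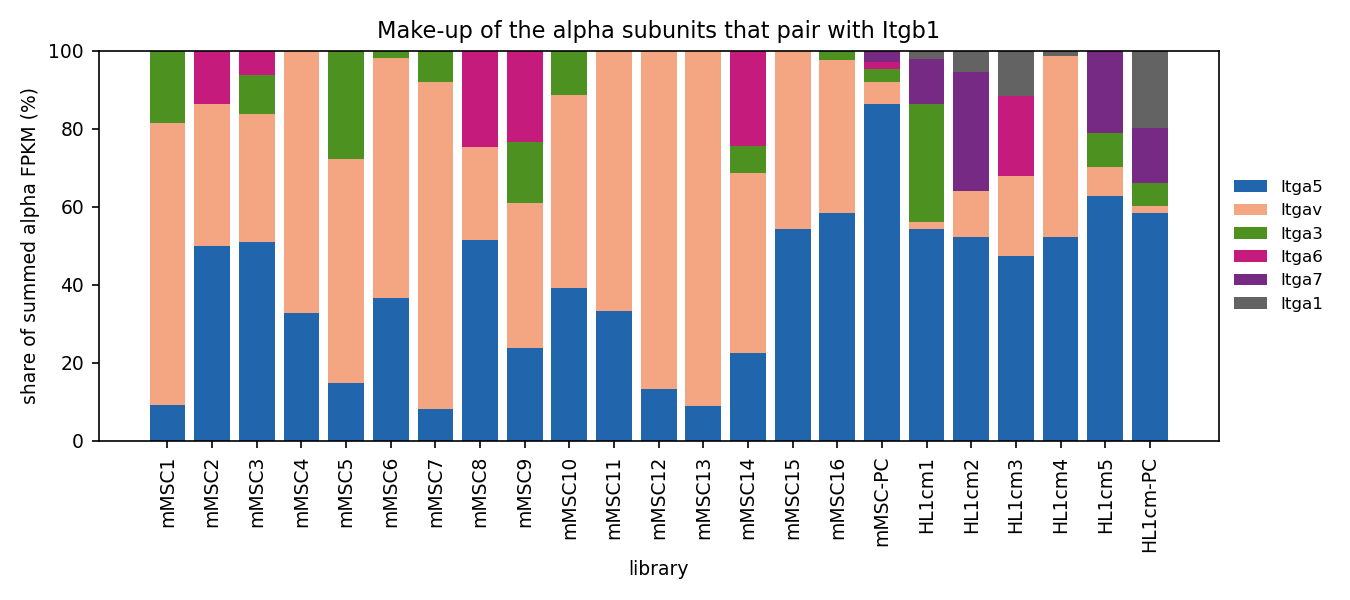
Share (%) of each alpha subunit in the summed FPKM of 6 alpha subunits, 1 bar per library. Itgav (orange) takes 23.9 to 90.9% in the mMSCs and Itga5 (blue) 47.4 to 62.8% in the HL1cm, while mMSC-PC is 86.5% Itga5.

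The mMSCs were then compared with the HL1cm on log2 FPKM, with values under 1 FPKM set to 1 and a difference of means over 1 called. Of the 10 genes, 9 were detected in at least 2 cells and entered the comparison, all but Itgb3. Itgb5 (difference 4.35), Itgav (2.85) and Itgb1 (2.03) were higher in mMSCs, 3 of 9 genes where 21.4% of all genes tested were. The medians of Itgav and Itgb1 were 9.59-fold and 2.94-fold those of the HL1cm. Itga7 was lower in mMSCs (-1.98), 1 of 9 genes where 21.6% of all genes tested were. The differences of Itga6 (0.74), Itgb7 (0.55), Itga3 (0.098), Itga5 (-0.48) and Itga1 (-0.55) did not pass 1. The median difference was 0.32 over the 10 genes, Itgb3 included, and 0.084 over the 11850 genes tested, which do not include Itgb3.

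For 1 gene, Itgb1, the ranges of the cell types did not overlap, where for 2.19% of all genes tested every mMSC lay above every HL1cm. For none of the 9 did every mMSC lie below every HL1cm, where this held for 1.77% of all genes tested. Scaled to a common sum of FPKM (TPM), 3 mMSCs lay at or under the highest HL1cm, with the lowest mMSC at 47.9 TPM and the highest HL1cm at 69.9 TPM, and the difference of the means was 2.36. HL1cm3 held by far the lowest Itgb1 of its type, and without it the difference was 1.55. Without HL1cm3, the only HL1cm with Itga6, the difference of Itga6 was 1.06, past the limit. The 3 genes called higher kept that call under every scaling tried and without any 1 HL1cm. The population controls had no part in these calls. In mMSC-PC and HL1cm-PC Itgb5 was 78.8 and 10.7 FPKM, Itgav 11.6 and 1.35 FPKM, and Itgb1 175 and 100 FPKM. Itga7 was 6.02 and 10.1 FPKM, and Itga5, not called in the cells, was 183 and 41.7 FPKM. By ratio, Itgb1 and Itga7 thus stood closer in the controls than in the single cells.

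The population controls were set beside the mean of the single cells of the same type. In these pools fewer cells with a transcript and less of it per cell cannot be told apart. The controls were bulk RNA while the single cells were captured in the device, and the part of this in the values below was not tested. Itga5 was 183 FPKM in mMSC-PC, above all 16 mMSCs and 9.19 times their mean of 19.9 FPKM. Itgav was 11.6 FPKM in mMSC-PC, under 15 of the 16 mMSCs and 0.374 times their mean of 31.0 FPKM. On the log2 scale the differences were 3.20 for Itga5 and -1.42 for Itgav, and scaled to Gapdh they were 1.72 and -2.87. The order of these alpha subunits was therefore the reverse of that in most single mMSCs. In the HL1cm the same genes stood the same way, with Itga5 at 41.7 FPKM in HL1cm-PC, 1.92 times the mean of the cells, and Itgav at 1.35 FPKM, 0.247 times the mean.

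For the other genes, Itgb7 was 27.0 FPKM in mMSC-PC, 7.58 times the mean of the mMSCs, and Itgb3 1.06 FPKM, 5.02 times. Itgb1 was 175 FPKM, 1.17 times the mean, Itga3 7.36 FPKM, 1.94 times, Itga6 3.71 FPKM, 0.891 times, and Itgb5 78.8 FPKM, 2.47 times. Itga7, at 6.02 FPKM in mMSC-PC, was listed at 0 in every single mMSC, as were 3.03% of the genes detected in mMSC-PC, while 11 of the 12 cardiomyocyte markers were at 0 in mMSC-PC and Actc1 was at 2.80 FPKM. Itga5 and Itga7 lay above every single mMSC, 2 of the 9 genes detected in mMSC-PC where 13.8% of all genes detected there did. In HL1cm-PC Itga1, Itga5, Itgb1, Itgb5 and Itgb7 lay above every single HL1cm, 5 of 8 genes where 40.5% of all genes detected there did. Gapdh was 551 FPKM in mMSC-PC and 2.60 times the mean of the mMSCs, and scaled to Gapdh the log2 difference from the mean changed sign for Itgb5 (1.30 to -0.13), Itga3 (0.95 to -0.49) and Itgb1 (0.23 to -1.21).

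Relations between subunits across the 16 mMSCs are given as a description, because these cells share chip and sequencing run, are not named as separate cultures and differ in depth. On log2 values Pearson's r was 0.43 and Spearman's rho 0.44 for Itgb1 with the summed alpha partners, and r was 0.22 without mMSC2 and mMSC5. For Itgav with Itgb5 r was 0.29 and rho 0.36, and r was 0.51 without mMSC8 and mMSC14. For Itgav with Itgb3, above 0 in 2 cells, r was 0.24 and rho 0.36. Under TPM scaling r of Itgb1 with its partners was 0.82, and why it rose was not tested. Nothing was read from relations that were weak as deposited and depended on scaling or on a few cells, in values of this depth.

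For the 5 genes detected in at least 8 mMSCs, the gene of most similar pattern among 6776 others was sought by Pearson's r over the 16 cells. It was Postn for Itgb5 (0.89), Yif1b for Itgav (0.84), Parp14 for Itga5 (0.81), Mgst3 for Itga3 (0.79) and Fbxw11 for Itgb1 (0.74). Each is the highest of 6776 values over 16 cells. Yif1b codes for a protein of transport between endoplasmic reticulum and Golgi, Parp14 for an ADP-ribosyltransferase, Mgst3 for a microsomal glutathione transferase and Fbxw11 for a part of a ubiquitin ligase. Postn codes for periostin, a matrix protein, and ran from 1.24 to 460 FPKM in the mMSCs.

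Transcripts of the matrix proteins that these receptors bind were also counted. A list of 14 genes held ligands of integrins that bind RGD, Postn and Cyr61 among them, and was not limited to proteins with an RGD site. Of these, 10 were detected in at least 8 mMSCs and 4 in at least 3 HL1cm. In mMSCs 10 were higher and none lower, with a median difference of 2.01. Over all genes tested 21.4% were higher and 21.6% lower, with a median difference of 0.084, which stands as the background for this and the next lists. The lists were counted whole, without the filter on detection that the background passed. At 0 in all 16 mMSCs were 3 of the 14, and 8 were at 0 in all 5 HL1cm. The highest were Spp1, which codes for osteopontin (578 to 11947 FPKM in mMSCs, 6.34 to 38.5 in HL1cm), and Thbs1, which codes for thrombospondin 1 (median 335 FPKM in mMSCs, 0 in all 5 HL1cm). Fn1, which codes for fibronectin, the ligand of alpha5beta1, had a median of 59.1 FPKM in mMSCs and 5.21 FPKM in HL1cm, and Vtn, which codes for vitronectin, was at 0 in all 21 cells. Of 17 collagen and laminin genes, 7 were higher in mMSCs and 1 lower, with a median difference of 0.22. Col1a1 and Col1a2 of type I collagen had medians of 134 and 317 FPKM in mMSCs.

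Of 18 genes that link integrins to actin, 14 were detected in at least 8 mMSCs and 13 in at least 3 HL1cm, 6 were higher and 1 lower in mMSCs (21.4% and 21.6% of all genes tested), and the median difference was 0.49. Zyx, which codes for zyxin of focal adhesions, had a median of 279 FPKM in mMSCs and 58.6 FPKM in HL1cm, and Actn1, an actin cross-linker, 282 and 87.7 FPKM. Ilk, of the ILK, PINCH and parvin complex, had 132 and 79.9 FPKM and a difference of 0.78, and Vcl, which codes for vinculin, 85.4 and 52.9 FPKM and a difference of 0.47. Actn4, a further actin cross-linker, had 39.3 and 87.4 FPKM and a difference of -0.69. Of 16 genes of integrin signalling, 9 were higher and 2 lower in mMSCs (21.4% and 21.6% of all genes tested), with a median difference of 1.18. Rsu1 (2.28), a binding partner of PINCH, and the small GTPases Rhoa (1.67) and Rac1 (1.20) were higher, Cdc42 differed by -0.092, and Arhgef7, an exchange factor for Rac1 and Cdc42, was lower (-4.22). Of 12 general genes of the cell, 3 were higher, Actb by 2.23, and 1 lower in mMSCs (21.4% and 21.6% of all genes tested). Their median difference was 0.43, and the part of this in the differences above was not tested.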

How the data were processed

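RNA was measured in 16 single mMSCs, 5 single HL1cm and 1 population control of each. For the single cells cDNA was made by the SMARTer kit in a Fluidigm C1 device. Nextera XT libraries were sequenced with paired reads on a MiSeq. The population controls were bulk RNA run in parallel, and the paper does not state how their cDNA was made. The authors imaged each capture site for cell number, and no doublet caller was run. The authors used TopHat 2.0.12 for alignment to mm10 and Cufflinks 2.2.1 for abundance, with default options, and deposited FPKM values per gene, which were used unchanged. Labels gave each sample its group. All 23 columns were matched to samples by title, and no pair of libraries held identical values.

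The depth of a library was estimated from the table as the 95th percentile of the depth that 1 fragment would imply, over 800 genes with a single transcript longer than 3000 bases in GENCODE M21. It is an estimate used for the single cells alone, since its order for the population controls was not the order of the read totals, and fragments are not molecules. On the log2 scale 1 FPKM was the floor for lower values. A gene entered the comparison if at 1 FPKM or more in at least 2 of 21 cells, and a difference in mean log2 FPKM over 1 was called. No p-value was computed, since each cell type is 1 sample. Gene loci and exon overlaps were read from GENCODE M21 and promoters from RefSeq. Besides the 10 integrin genes, genes were named if they were integrin subunits at 1 FPKM or more in any library, among the 4 of highest median in either cell type in a listed group, or first in similarity to an integrin gene. Other genes were named after their values were seen. A gene that this rule would name is not reported here. The integrin genes, lists, pairs and alternatives were chosen with earlier results of these data known. The comparison was tested on simulated data. Neither the settings nor the outcome of that test are given here, so it is no check on the calls of the integrin genes. Computations used matplotlib 3.10.9, scipy 1.17.1, pandas 2.3.3 and numpy 2.4.6 in Python 3.11.15.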

Additional observations from a re-analysis of the deposited data

Results flagged for a closer look

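Over the 5 HL1cm, 13 quantities were listed for a check, of which Itgb3 and Itgb7 were at 0 in all 5 cells and could not be checked. The others were searched for a cell whose gap to the nearest other cell took most of the range. Chance alone marks about 1 in 20 groups of continuous values, a rate that does not hold for counts or tied values. Itgb1 in HL1cm3 was 9.32 FPKM, against 41.6 to 54.8 FPKM in the other 4. Itga6 in HL1cm3 was 3.04 FPKM and Itgb5 in HL1cm4 was 1.63 FPKM, each listed at 0 in the other 4 cells, so that any value over the limit gives this mark. HL1cm4 held 4 of the 10 integrin genes and 3 of the 8 pairs, against 5 genes and 4 pairs in every other HL1cm. In counts that take so few values a difference of 1 is enough for this mark. The 16 mMSCs were not checked in this way.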

How the results depend on the processing

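Of 295 values recomputed under 59 planned and 3 added alternatives, 142 of the main results and 137 of the values of single genes stayed within a set limit. For levels, differences and ratios the limit was the SD between cells, and for counts 1.5 times. For correlations it was an approximate standard error, and for the median difference of mMSC-PC the SD over 8 genes. The SD between cells is wide, as for Itga3 (1.53) and Itgb5 (1.54) on the log2 scale in mMSCs, so such a limit is loose. The number of genes lower in mMSCs than in HL1cm, 1 as reported, was 2 with log2(FPKM + 1) and 2 with log2(FPKM + 0.1), where Itga1 passed the limit, and 0 when detection in at least 8 cells was required, which removed Itga7. The number of genes with every mMSC above every HL1cm, 1 as reported, was 0 under TPM scaling. With log2(FPKM + 0.1) 4 genes were higher in place of 3, with Itga6 at 1.11. At a limit of 10 FPKM the median over HL1cm was 3 genes and 2 pairs, against 5 and 4. Pearson's r of Itgb1 with its summed alpha partners was 0.82 under TPM scaling and 0.43 as reported, and the cause of this was not tested. For Itgb5, the log2 difference of mMSC-PC from the mean of the mMSCs turned from 1.30 to -0.13 under Gapdh scaling, and those of Itga3 and Itgb1 turned to -0.49 and -1.21. The median of that difference over 8 integrin genes went from 0.59 to -0.31 under the same scaling, and the cause was not tested. The median difference of all genes tested between mMSCs and HL1cm was 0.084 as deposited, 0.23 under TPM, 0.21 under Gapdh and -0.046 under median scaling. Without mMSC9 and mMSC15, the shallowest mMSCs, no main result moved past its limit, and Itgb7 then rested on mMSC6 alone. Without each HL1cm in turn, 3 to 4 genes were higher in mMSCs, and Itgb1 over its summed alpha partners had a median of 0.811 to 1.18 in HL1cm.

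No paired analysis was possible because the results come from no test and the numbers of mMSCs and HL1cm only name cells. Depth limits the low values most. A value near 1 FPKM rested on about 2 fragments, as did Itga5 in mMSC1 and Itga3 in mMSC6, so such detections and the pairs that need them are the least certain.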
